A study of Mus musculus with 12 samples.

Results

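The genes of the VEGF and angiopoietin families were followed through RNA-seq of 3 mouse melanocytic lines, MelanA, B16F0 and B16F10. The members were the rows of the deposited count table with the gene names Vegfa, Vegfb, Vegfc, Vegfd, Pgf, Angpt1, Angpt2, Angptl2, Angptl4 and Angptl6, which are 10 of its 34513 genes. MelanA is a nontumorigenic melanocyte line, B16F0 is a melanoma line, and B16F10 is a melanoma subline selected from B16 for colonisation of the lung. Each line was sequenced untreated, with the label "None" for treatment, and with SX-682, a small-molecule antagonist of the chemokine receptors CXCR1 and CXCR2, which makes 6 groups of 2 libraries. The dose and duration of SX-682 for these cultures and the presence of a vehicle in the untreated cultures are not given in the sources used here. All groups were cultures of the lines alone, without host tissue, and nothing in the labels ties the replicates to separate cultures, so the p-values below measure only the spread between these libraries, which may be technical. In such bulk RNA, fewer cells of a kind and less RNA per cell cannot be told apart. The comparisons asked at what level each factor was expressed in each line, how SX-682 changed it, and whether that change differed between the lines.

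VEGF ligands are secreted dimers that bind tyrosine kinase receptors on endothelial cells, and VEGF-A is the main driver of new blood vessel growth, induced in hypoxia through HIF-1. VEGF-B and placenta growth factor bind VEGFR1, whereas VEGF-C and VEGF-D bind VEGFR3 and drive the growth of lymphatic vessels. The angiopoietins bind the receptor Tie2, which ANGPT1 activates and ANGPT2 often antagonises, and the angiopoietin-like proteins share their fold but do not bind Tie2. In melanoma, tumor cells are a known source of VEGF-A.

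Library totals ranged from 48876982 to 85322092 counts, and a floor of 3 counts in a library, which is what a count of 0 allows and covers counting error only, corresponded to 0.033 to 0.0623 CPM (counts scaled to a common library size by the TMM method). The replicates of each group differed beyond counting noise (chi-square of 2.87 to 5.25 for each gene on average). The 7 melanocyte markers examined (Mitf, Tyr, Tyrp1, Dct, Pmel, Mlana and Sox10) were above the floor in all 6 groups. In MelanA, Tyr, the rate-limiting enzyme of melanin synthesis, was at 0.826 CPM and the pigment-granule protein gene Pmel at 8.11 CPM untreated, against 515 and 4512 CPM in untreated B16F0. Summed over the 7 markers, the level was 1344 to 1374 CPM in untreated MelanA, 18580 to 18664 CPM in untreated B16F0 and 24442 to 24471 CPM in untreated B16F10. With SX-682 this sum was 1346 to 1355 CPM in MelanA, 15770 to 15958 CPM in B16F0 and 14947 to 15188 CPM in B16F10. Of the 6 fibroblast markers, 6 were above the floor in MelanA with a sum of 114 to 115 CPM untreated and 93.5 to 94.8 CPM with SX-682, while the sum was 16.1 to 16.8 CPM in B16F0 and 8.43 to 9.72 CPM in B16F10 over both conditions. The sum of 7 endothelial markers ranged from 5.41 to 62.0 CPM and was mostly Vwf, with the defining markers Cdh5 at no more than 0.458 CPM and Kdr at no more than 0.115 CPM in any group. The 4 macrophage markers in the table summed to 0.0825 to 2.57 CPM and the 4 keratinocyte markers to 0 to 3.39 CPM, both highest in MelanA. The part of these marker differences in the results below was not tested.

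Of the 10 members, 7 matched the RefSeq promoter table (GRCm38.p6), with 9 promoters. The promoters of 3 members are printed because they belong to members whose response to SX-682 carried the results: Angptl6 rose in every line, Vegfb fell in every line, and the direction of the Vegfa change depended on the line. Each entry gives bases 5′ of a RefSeq start and outside exons, 5′ to 3′ on the minus strand of the genome, and capitals mark the GC box GGGCGG and the hypoxia-response cores ACGTG and GCGTG on either strand.
Vegfa, chr17:46032378-46032627: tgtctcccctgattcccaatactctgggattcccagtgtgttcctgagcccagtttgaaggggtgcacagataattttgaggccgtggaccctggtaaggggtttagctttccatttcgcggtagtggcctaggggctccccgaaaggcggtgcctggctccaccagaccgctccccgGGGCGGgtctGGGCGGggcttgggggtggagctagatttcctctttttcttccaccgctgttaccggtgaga
Vegfb, chr19:6987652-6987901: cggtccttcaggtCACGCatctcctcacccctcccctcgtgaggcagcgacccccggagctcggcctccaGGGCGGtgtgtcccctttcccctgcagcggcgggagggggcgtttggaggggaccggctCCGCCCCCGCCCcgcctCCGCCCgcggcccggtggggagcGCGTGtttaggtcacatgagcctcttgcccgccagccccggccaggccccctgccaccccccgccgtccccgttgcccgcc
Angptl6, chr9:20879728-20879960: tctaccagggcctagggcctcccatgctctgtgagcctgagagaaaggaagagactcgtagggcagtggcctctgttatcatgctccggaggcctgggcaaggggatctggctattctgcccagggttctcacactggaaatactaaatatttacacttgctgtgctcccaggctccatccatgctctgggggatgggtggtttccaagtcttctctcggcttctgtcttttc
The Vegfa promoter shown, the more upstream of 2 in the table, held 2 GC boxes, which begin 72 and 62 bases before the start, and neither hypoxia-response core, whereas the other window held 1 match of each core. The Vegfb window held 4 GC boxes, which begin 180, 121, 115 and 104 bases before the start, and 2 copies of GCGTG, which begin 237 and 81 bases before it. The GC content was 59.2% for Vegfa, 76.4% for Vegfb and 54.5% for Angptl6. The Angptl6 window held none of these motifs, and the motifs of the ATF4 and C/EBP element (TGATGNAA) and the core of the cyclic AMP response element (TGACG) also had no match there. Among 32851 promoters of 250 bases, GGGCGG on either strand occurred in 32.7%, GCGTG in 28.2%, ACGTG in 16.6%, TGACG in 17.8% and TGATGNAA in 3.45%. A match or its absence describes only these letters in these windows.

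Per kilobase of exon, the scale on which different genes can be compared, Angptl2 (57.3 ± 0.955 CPM per kb, SD, n = 2) and Vegfb (44.3 ± 3.47) were the most abundant members in untreated MelanA. Vegfb led in untreated B16F0 (47.8 ± 0.127) and in untreated B16F10 (89.7 ± 0.659). Angpt2, the least abundant member in untreated MelanA at 0.0782 ± 0.0093 CPM per kb, was the second most abundant in B16F0 at 21.4 ± 0.229 and the third in B16F10 at 48.6 ± 0.753. Angpt1, Vegfd and Angptl4 stayed under 1 CPM per kb in every group. Neighbours in this order whose means overlapped within 1 SD were Angptl2 (17.5 ± 0.461) and Vegfa (16.3 ± 0.925) in B16F0, Vegfd (0.45 ± 0.0162) with Angptl6 (0.343 ± 0.164) and Angptl6 with Angptl4 (0.253 ± 0.0022) in MelanA, Vegfd (0.0299 ± 0.0188) and Angptl4 (0.0195 ± 0.0098) in B16F0, and Pgf (0.0905 ± 0.0474) and Vegfd (0.0739 ± 0.0218) in B16F10.

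**Figure D1:**
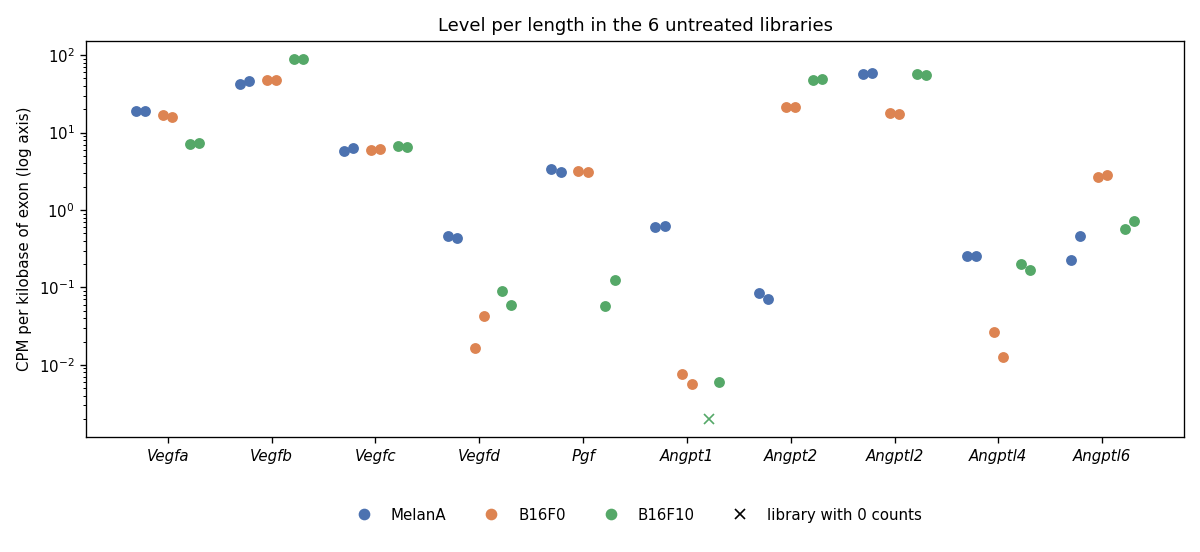
Level of each member in the 6 untreated libraries, in CPM per kilobase of exon on a log axis, with 1 point per library, coloured by line, and a cross for a library with 0 counts. Vegfb was at 44.3 to 89.7 CPM per kb on average in every line, while Angpt2 was near the bottom in MelanA and among the highest members in the B16 lines.

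Of the 10 members, which all passed the expression filter, 3 were higher and 5 lower in untreated B16F0 than in untreated MelanA in edgeR's quasi-likelihood test at an adjusted p under 0.05, where 35.3% of 18338 genes were called higher and 40.6% lower. Against MelanA, untreated B16F10 had 3 members higher and 4 lower, with 33.4% and 40.8% of all genes called. Between the B16 lines, 4 members were higher and 3 lower in B16F10, with 30.8% and 31.2% of all genes called. The median absolute log2 difference of all 10 members was 2.36, 1.20 and 1.24 in these 3 comparisons, against 0.71, 0.68 and 0.46 for all genes. The value of 1.24 includes a fitted difference for Angpt1, which was at the floor in both B16 lines. The median signed difference was -0.11 and -0.24 against MelanA, with Angpt1 in the B16 lines set at the floor. It was 0.91 between the B16 lines over the 9 members that were not at the floor in both.

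SX-682 raised 3 members and lowered 3 in MelanA, where 23.4% of all genes were called higher and 24.7% lower. In B16F0 it raised 1 and lowered 5, with 25.1% and 25.0% of all genes called. In B16F10 it raised 3 and lowered 3, with 25.5% and 25.3% of all genes called. The median log2 change of the members was -0.14 in MelanA, -0.18 in B16F0 and 0.10 in B16F10 (9 members), with a median of 0.00 for all genes in each line. In absolute size the median over all 10 members was 0.66, 0.36 and 0.35 in the same order, against 0.31, 0.32 and 0.36 for all genes. The B16F10 value of 0.35 includes the fitted change of Angpt1, which was at the floor in both conditions. That fitted value is no measurement, and it raises the median. The change differed among the 3 lines for 6 members, with 47.4% of all genes called in that test. Pairwise, it differed for 3 members between B16F0 and MelanA (34.4% of all genes), 3 between B16F10 and MelanA (33.8%) and 4 between B16F10 and B16F0 (30.3%). These comparisons share the untreated and SX-682 libraries of a line, so their counts are not independent of each other. With 2 libraries per group, an exact permutation test over the libraries of a line cannot go below a 2-sided p of 0.333, and the calls depend on an estimate of the spread pooled over genes, with a biological coefficient of variation of 2.78%.

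**Figure D2:**
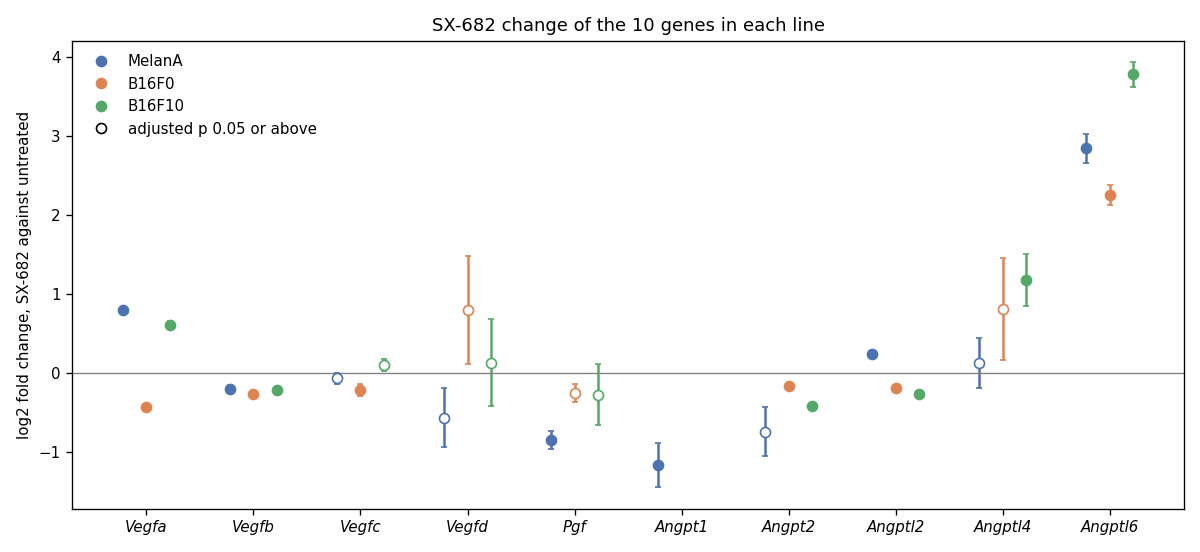
The log2 fold change with SX-682 against untreated for each member in each line, with the standard error of the edgeR fit as bars and open circles where the adjusted p was 0.05 or above. Angptl6 lies between 2.25 and 3.78 in the 3 lines, Vegfa is above 0 in MelanA and B16F10 and below 0 in B16F0, and Angpt1 is drawn in MelanA alone because both B16 lines had untreated libraries at or under the floor.

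Vegfa (ENSMUSG00000023951.17, chr17:46016993-46032369, GRCm38, minus strand) was the member called in opposite directions in B16F0 and B16F10. In MelanA, the untreated libraries were at 80.7 and 80.5 CPM and the SX-682 libraries at 140 and 141 CPM. In B16F0 they were at 72.8 and 67.1 CPM untreated and at 54 and 49 CPM with SX-682. The B16F10 libraries were at 30.3 and 31.2 CPM untreated and at 48.2 and 45.8 CPM with SX-682. The conditions did not overlap in any line, with SX-682 above in MelanA and B16F10 and below in B16F0. Vegfa rose 1.74-fold in MelanA (log2 fold change 0.80, SE 0.039, adjusted p = 1.62e-16) and 1.53-fold in B16F10 (0.61, SE 0.048, adjusted p = 4.33e-12). It fell to 0.738 of the untreated level in B16F0 (-0.44, SE 0.044, adjusted p = 8.16e-10). The change in B16F0 was 1.24 log2 units below that in MelanA (SE 0.059, adjusted p = 2.28e-16), and the change in B16F10 was 1.05 above that in B16F0 (SE 0.065, adjusted p = 2.1e-13). A smaller difference of -0.19 between B16F10 and MelanA (SE 0.062, adjusted p = 0.0182) lost the call without B16F10 SX-682 replicate 2 (adjusted p = 0.0901) or without B16F10 untreated replicate 2 (adjusted p = 0.064).

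Untreated, Vegfa was highest in MelanA, slightly lower in B16F0 (log2 difference -0.20, SE 0.041, adjusted p = 5.13e-05) and lowest in B16F10, at 0.382 of the MelanA level (-1.39, SE 0.045, adjusted p = 5.22e-22) and 0.44 of the B16F0 level (-1.18, SE 0.046, adjusted p = 1.16e-19). With SX-682, B16F0 and B16F10 reached neighbouring levels of 51.5 ± 3.54 and 47.0 ± 1.71 CPM. The annotation gives Vegfa 8 coding transcripts, and gene counts do not separate them, so the secreted and matrix-bound forms of VEGF-A could not be told apart here.

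Vegfb (ENSMUSG00000024962.13, chr19:6982473-6987651, minus strand), whose product acts through VEGFR1 and is linked to fatty acid handling and vessel survival, fell by a similar small amount in all 3 lines. The untreated and SX-682 libraries were at 67.1 and 75.0 against 61.3 and 62.3 CPM in MelanA, at 76.9 and 76.6 against 61.4 and 65.9 CPM in B16F0, and at 143 and 145 against 124 and 123 CPM in B16F10. Both SX-682 libraries lay below both untreated libraries in each line. The log2 changes were -0.20 in MelanA (SE 0.04, adjusted p = 0.000108), -0.27 in B16F0 (SE 0.042, adjusted p = 2.16e-06) and -0.22 in B16F10 (SE 0.038, adjusted p = 1.16e-05). The MelanA value was -0.12 without MelanA untreated replicate 2, the higher of the controls. The test for a difference among the lines did not pass the threshold (adjusted p = 0.586; 0.046 without MelanA untreated replicate 2), with the 3 changes within 0.07 log2 units of each other and pairwise standard errors of 0.056 to 0.058. Untreated Vegfb was 2.03-fold higher in B16F10 than in MelanA (log2 1.02, SE 0.039, adjusted p = 3.59e-20) and 1.88-fold higher than in B16F0 (0.91, SE 0.039, adjusted p = 1.85e-18). The small difference between B16F0 and MelanA (0.11, SE 0.04, adjusted p = 0.0136) was 0.03 without MelanA untreated replicate 1 (adjusted p = 0.51) and 0.20 without MelanA untreated replicate 2 (adjusted p = 6.11e-05), and it lost the call under RLE scaling, in DESeq2, with at least 10 counts in every library and without B16F0 untreated replicate 1.

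Together, Vegfa and Vegfb made up most of the summed per-length level of the 5 VEGF ligand genes. Vegfb held 59.5% and 62.0% of that sum in the untreated MelanA libraries, 64.7% and 65.6% in B16F0 and 86.5% and 86.6% in B16F10. The Vegfa share in MelanA was 26.8% and 24.9% untreated and 41.4% and 41.3% with SX-682. In B16F0 it was 22.9% and 21.6% against 21.4% and 19.0%, and in B16F10 6.86% and 7% against 11.8% and 11.3%. The sum itself was 70.3 and 75.4 CPM per kb untreated and 78.9 and 79.4 with SX-682 in MelanA, 74.1 and 72.7 against 59.0 and 60.1 in B16F0, and 103 and 104 against 95.2 and 94.8 in B16F10. It was thus higher with SX-682 in MelanA and lower in both B16 lines, with no overlap between the conditions of a line. These sums and shares are descriptions and were not tested.

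**Figure D3:**
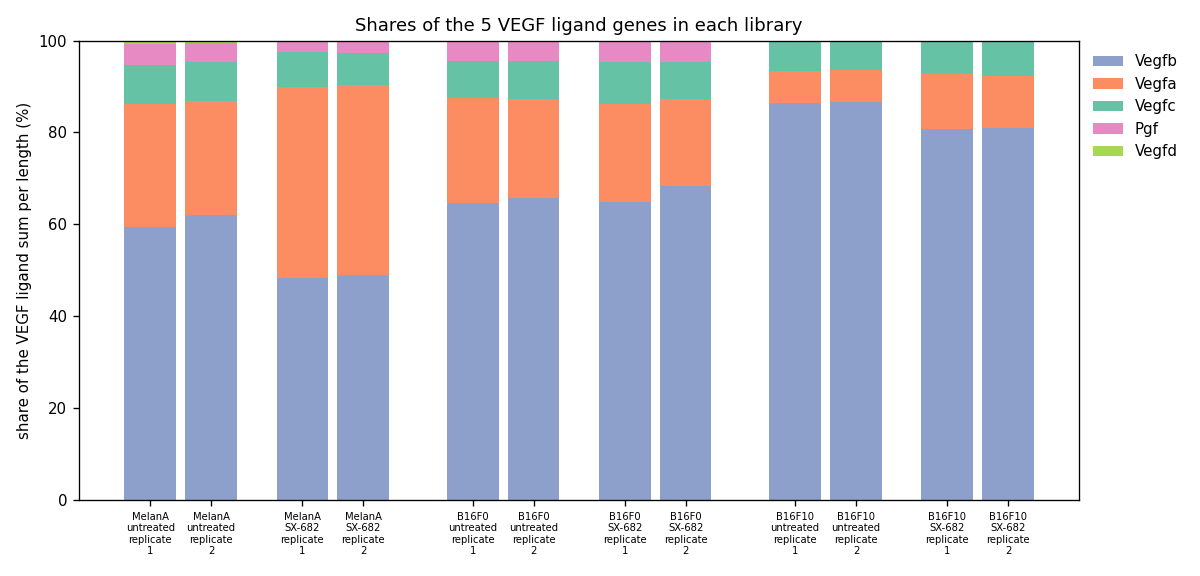
Share of each of the 5 VEGF ligand genes in their summed CPM per kilobase, in percent, as 1 stacked bar for each of the 12 libraries. Vegfb is the largest share in every library, from 48.4% in a MelanA library with SX-682 to 86.6% in an untreated B16F10 library, and the Vegfa share widens with SX-682 in MelanA and B16F10.

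Vegfc (ENSMUSG00000031520.6, chr8:54077606-54187096, plus strand), the main growth factor for lymphatic endothelium, had similar levels in the 3 untreated lines. The untreated libraries were at 14.3 and 15.6 CPM in MelanA, 14.6 and 15.0 CPM in B16F0 and 16.4 and 15.7 CPM in B16F10, and none of the 3 pairwise differences passed the test, with log2 values of -0.01, 0.11 and 0.12 and adjusted p of 0.161 to 0.86. With SX-682 the libraries were at 14.7 and 13.7 CPM in MelanA, 13.3 and 12 CPM in B16F0 and 16.8 and 17.6 CPM in B16F10. Vegfc fell in B16F0 (log2 -0.22, SE 0.076, adjusted p = 0.0166), a call that was lost without B16F0 SX-682 replicate 2 (adjusted p = 0.185) or B16F0 untreated replicate 2 (adjusted p = 0.0856). The values in MelanA (-0.07, SE 0.072) and B16F10 (0.10, SE 0.074) did not pass. The difference in change between B16F10 and B16F0 was 0.32 (SE 0.11, adjusted p = 0.0229), and it was lost in DESeq2 (adjusted p = 0.0649) and without replicate 2 of B16F0 untreated (adjusted p = 0.0748), B16F0 SX-682 (difference 0.25), B16F10 untreated (adjusted p = 0.095) or B16F10 SX-682 (adjusted p = 0.0837).

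Vegfd (ENSMUSG00000031380.10, chrX:164373378-164402650, plus strand), the other lymphatic ligand, was near the floor in both B16 lines. MelanA had 96 and 96 counts untreated and 52 and 55 with SX-682, B16F0 had 3 and 7 against 6 and 8, and B16F10 had 13 and 9 against 8 and 15. In CPM the untreated level was 1.08 ± 0.039 in MelanA, 0.0721 ± 0.0453 in B16F0 and 0.178 ± 0.0524 in B16F10. It was lower in B16F0 than in MelanA by a log2 difference of -3.90 (SE 0.51, adjusted p = 5.97e-08) and in B16F10 by -2.60 (SE 0.45, adjusted p = 7.26e-06). Without B16F0 untreated replicate 2 the former was -4.69. The difference between the B16 lines (1.30, SE 0.63, adjusted p = 0.0758) was 2.10 without B16F0 untreated replicate 2 (adjusted p = 0.0397). No change with SX-682 passed the test, and the MelanA value of -0.57 (SE 0.37, adjusted p = 0.227) came from SX-682 libraries that lay below both controls.

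Pgf (ENSMUSG00000004791.7, chr12:85166635-85177790, minus strand), which encodes placenta growth factor, separated B16F10 from the other lines. Untreated libraries were at 9.69 and 8.95 CPM in MelanA and 9.40 and 9.09 CPM in B16F0, but at 0.165 and 0.36 CPM in B16F10, which is 10 and 23 counts. The level in B16F10 was 0.0286 of that in MelanA (log2 -5.13, SE 0.19, adjusted p = 1.71e-20) and 0.0289 of that in B16F0 (-5.11, SE 0.19, adjusted p = 5.45e-20), and MelanA and B16F0 did not differ beyond their spread (-0.01, SE 0.11). Without B16F10 untreated replicate 2, the library with 23 counts, the differences were -5.79 and -5.78. SX-682 lowered Pgf in MelanA to 5.03 and 5.32 CPM (log2 -0.85, SE 0.12, adjusted p = 3.04e-07). In B16F0 the SX-682 libraries were at 7.73 and 7.75 CPM, below both controls, without passing the test (-0.26, SE 0.12, adjusted p = 0.0655). In a fit of the B16F0 libraries alone, that change passed (adjusted p = 0.0215), as it did without either B16F10 untreated library (adjusted p = 0.044 and 0.0441). The B16F10 libraries had 13 counts each with SX-682 and overlapped their controls. The difference in change between B16F0 and MelanA was 0.59 (SE 0.16, adjusted p = 0.00474).

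Angpt1 (ENSMUSG00000022309.9, chr15:42424723-42676977, minus strand), the Tie2 agonist, and Angpt2 (ENSMUSG00000031465.6, chr8:18690263-18741562, minus strand), the context-dependent antagonist stored by endothelial cells, had opposite distributions over the lines. Angpt1 had 274 and 298 counts in untreated MelanA, 3 and 2 in untreated B16F0 and 0 and 2 in untreated B16F10. With each B16 library set at the floor, its CPM was 76.2-fold lower in B16F0 and 66.8-fold lower in B16F10 than in MelanA. These folds are not strict lower bounds, since counts of 2 and 3 allow more than the floor. Angpt2 had 27 and 24 counts in untreated MelanA, 5874 and 5353 in B16F0 and 10725 and 11587 in B16F10. In CPM this was 0.313 and 0.264, 78.4 and 79.6, and 177 and 181. Angpt2 was 273-fold higher in B16F0 than in MelanA (log2 8.09, SE 0.077, adjusted p = 1.65e-35), 619-fold higher in B16F10 than in MelanA (9.27, SE 0.07, adjusted p = 8e-38) and 2.27-fold higher in B16F10 than in B16F0 (1.18, SE 0.033, adjusted p = 4.07e-23). Among the 18338 genes tested, the Angpt2 difference ranked 170 from the highest in B16F0 against MelanA and 80 in B16F10 against MelanA.

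Of Angpt1 and Angpt2, only the one that was the more abundant per length in a line was called lower with SX-682. The other had few counts, 0 to 6 for Angpt1 in the B16 lines and 10 to 27 for Angpt2 in MelanA. Such counts limit what the test can call, so the calls do not tie the decrease to abundance. The Angpt2 change did not differ past the threshold from MelanA in B16F0 (adjusted p = 0.194) or B16F10 (adjusted p = 0.522) by edgeR. In MelanA, Angpt1 went from 3.17 and 3.28 CPM to 1.56 and 1.31 CPM (log2 -1.17, SE 0.28, adjusted p = 0.000792). In B16F0 it had 2 and 6 counts with SX-682, which overlap the controls, and in B16F10 it had 0 and 0, which allows up to 0.0495 and 0.0513 CPM, so that no fold was computed there. Angpt2 went from 78.4 and 79.6 to 69.7 and 70.8 CPM in B16F0 (log2 -0.17, SE 0.035, adjusted p = 0.000149) and from 177 and 181 to 134 and 134 CPM in B16F10 (-0.42, SE 0.032, adjusted p = 2.47e-12). The decrease was larger in B16F10 than in B16F0 by 0.25 log2 units (difference -0.25, SE 0.048, adjusted p = 0.000119). In MelanA, where Angpt2 had 15 and 10 counts with SX-682, the value of -0.75 (SE 0.31, adjusted p = 0.058) did not pass, though it did when genes were required to have at least 10 counts in every library (adjusted p = 0.0462) or without MelanA SX-682 replicate 1 (adjusted p = 0.0441). The Angpt1 exons share 737 bases, 14.2% of their length, with those of Gm17473, which had 0 to 8 counts, and the strand setting of the counting is not given in the sources used here. The melanocyte marker sum given above also fell with SX-682 in both B16 lines and stayed at the untreated level in MelanA, and its part in the Angpt2 decrease was not tested.

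Angptl2 (ENSMUSG00000004105.8, chr2:33216069-33247717, plus strand), a secreted protein with pro-inflammatory and pro-angiogenic activity, was called in opposite directions in MelanA and the B16 lines. Untreated libraries were at 356 and 365 CPM in MelanA, 112 and 108 CPM in B16F0 and 355 and 351 CPM in B16F10. B16F0 was at 0.305 of the MelanA level (log2 -1.71, SE 0.027, adjusted p = 5.84e-30), and B16F10 was 3.22-fold above B16F0 (1.69, SE 0.027, adjusted p = 5.45e-29). MelanA and B16F10 differed by -0.03 (SE 0.025, adjusted p = 0.303), which passed under RLE scaling and in DESeq2 at -0.06 and with at least 10 counts in every library at -0.09 (adjusted p = 0.00125), still in the same direction. With SX-682 Angptl2 rose to 424 and 426 CPM in MelanA (0.24, SE 0.025, adjusted p = 3.03e-09). It fell to 98.0 and 94.4 CPM in B16F0 (-0.19, SE 0.029, adjusted p = 1.94e-06) and to 287 and 296 CPM in B16F10 (-0.28, SE 0.026, adjusted p = 2.02e-10). The change was lower than in MelanA by 0.43 log2 units in B16F0 (difference -0.43, SE 0.038, adjusted p = 2.83e-10) and by 0.51 in B16F10 (-0.51, SE 0.036, adjusted p = 1.57e-12). Between the B16 lines the difference of -0.09 (SE 0.039, adjusted p = 0.0977) did not pass, although RLE scaling (adjusted p = 0.0339) and DESeq2 (adjusted p = 0.0295) put it past the threshold.

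Angptl4 (ENSMUSG00000002289.16, chr17:33773750-33781830, minus strand), an inhibitor of lipoprotein lipase and a target of HIF-1 and PPAR, was low throughout. It had 77 and 82 counts in untreated MelanA, 7 and 3 in B16F0 and 43 and 38 in B16F10. With SX-682 the counts were 76 and 67, 5 and 9, and 99 and 77, so the conditions overlapped in MelanA and B16F0 and separated in B16F10. In B16F10 the level rose from 0.653 ± 0.0824 to 1.47 ± 0.223 CPM, 2.26-fold (log2 1.18, SE 0.33, adjusted p = 0.00325). The changes in MelanA (0.12, SE 0.31, adjusted p = 0.784) and B16F0 (0.81, SE 0.64, adjusted p = 0.32) did not pass, nor did a difference among the 3 lines (adjusted p = 0.147). The difference in change between B16F10 and MelanA, 1.05 (SE 0.45, adjusted p = 0.0767), passed in a fit of those groups alone (adjusted p = 0.0402). Untreated Angptl4 was lower in B16F0 than in MelanA by a log2 difference of -3.64 (SE 0.46, adjusted p = 2.85e-08) and higher in B16F10 than in B16F0 by 3.18 (SE 0.48, adjusted p = 1.14e-06). Without B16F0 untreated replicate 1, the library with 7 counts, these were -4.27 and 3.82.

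Angptl6 (ENSMUSG00000038742.7, chr9:20873808-20879727, minus strand), also known as angiopoietin-related growth factor, had the largest change with SX-682 among the members in each line. The counts without and with SX-682 were 31 and 66 against 301 and 274 in MelanA, 317 and 304 against 1325 and 1041 in B16F0, and 55 and 73 against 839 and 847 in B16F10. In CPM these were 0.359 and 0.726 against 4.22 and 3.65, then 4.23 and 4.52 against 20.1 and 21.6, and 0.91 and 1.14 against 13.8 and 14.5. The lowest SX-682 library of each line was above the highest control of that line. Angptl6 rose 7.17-fold in MelanA (log2 2.84, SE 0.18, adjusted p = 8.19e-14), 4.77-fold in B16F0 (2.25, SE 0.12, adjusted p = 1.21e-15) and 13.7-fold in B16F10 (3.78, SE 0.16, adjusted p = 1.76e-18). The MelanA change was 2.44 without MelanA untreated replicate 1 and 3.45 without MelanA untreated replicate 2. From the highest log2 change of 18338 genes, it ranked 113 in MelanA, 646 in B16F0 and 237 in B16F10.

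The rise was larger in B16F10 than in B16F0 by 1.53 log2 units (SE 0.21, adjusted p = 1.34e-06). It was larger in B16F10 than in MelanA by 0.94 (SE 0.28, adjusted p = 0.00815), a value that fell to 0.33 without MelanA untreated replicate 2 (adjusted p = 0.547) and to 0.78 without B16F10 untreated replicate 1 (adjusted p = 0.0585). Between B16F0 and MelanA the difference was -0.59 (SE 0.23, adjusted p = 0.0519), it passed in DESeq2 (adjusted p = 0.0483) and without the filter (adjusted p = 0.0451), and it was -1.20 without MelanA untreated replicate 2 (adjusted p = 0.000912). The untreated MelanA libraries, at 31 and 66 counts, were the most unequal pair for this gene. The untreated level was highest in B16F0, 7.97-fold above MelanA (log2 3, SE 0.18, adjusted p = 3.25e-15; 2.58 and 3.60 without MelanA untreated replicate 1 or 2), and B16F10 was at 0.236 of the B16F0 level (-2.09, SE 0.17, adjusted p = 1.04e-11). B16F10 was 1.88-fold above MelanA (0.91, SE 0.24, adjusted p = 0.00128), which was 0.51 without MelanA untreated replicate 1 (adjusted p = 0.0627) and 1.52 without MelanA untreated replicate 2 (adjusted p = 1.47e-05). The Angptl6 exons share 265 bases, 16.8% of their length, with those of Shfl on the opposite strand. Shfl itself had 0 to 2 counts in MelanA and B16F0 and 14 to 27 in B16F10, where its SX-682 libraries (21 and 14) were not above its controls (27 and 23).

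**Figure D4:**
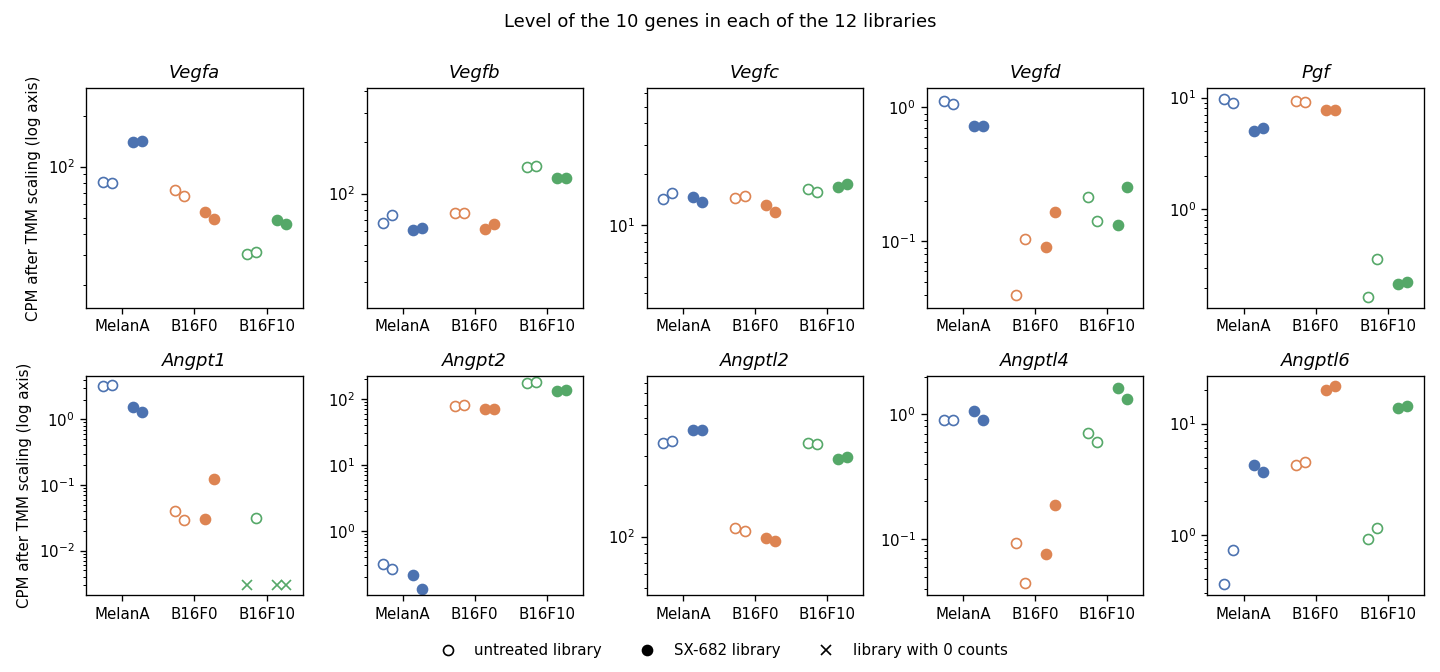
CPM of each member in each of the 12 libraries, on log axes that differ between panels, with open circles for untreated and filled circles for SX-682 libraries of each line and crosses for 0 counts. The filled circles of Angptl6 lie above the open circles in every line, Angpt2 is at 0.133 to 0.313 CPM in MelanA and above 69 CPM in the B16 lines, and Angpt1 shows the reverse distribution.

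The receptors and partners of these ligands were examined as lists chosen with earlier results of these data known, so their counts are descriptions. Over all tested genes, SX-682 raised 23.4% and lowered 24.7% in MelanA, 25.1% and 25.0% in B16F0, and 25.5% and 25.3% in B16F10. Of 5 VEGF receptors and co-receptors, 4 passed the expression filter, and Kdr, the main VEGF-A receptor of endothelium, had at most 16 counts in any library. Of these 4, SX-682 lowered 2 in MelanA, raised 2 in B16F0, and raised 1 and lowered 1 in B16F10 by edgeR, and DESeq2 gave the same counts. Nrp2, a co-receptor for VEGF-C and semaphorins, was the most abundant at 583 CPM in untreated MelanA, 655 in B16F0 and 310 in B16F10. It rose with SX-682 in B16F0 (log2 0.53, adjusted p = 1.32e-18) and B16F10 (0.31, adjusted p = 3.4e-13) and fell slightly in MelanA (-0.07, adjusted p = 0.00599). Nrp1, a co-receptor for VEGF-A, fell in MelanA (-0.68, adjusted p = 7.35e-15) and B16F10 (-0.22, adjusted p = 0.000387) and rose in B16F0 (0.11, adjusted p = 0.0417). Flt1, which encodes VEGFR1, was at 12.5 CPM in untreated MelanA and at 0.0505 and 0.128 CPM in untreated B16F0 and B16F10, and Flt4, which encodes VEGFR3, was at 2.89, 4.03 and 0.057 CPM in the same order. Neither changed past the threshold with SX-682 in any line.

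Among 7 angiopoietin receptors and partners, SX-682 raised 3 and lowered 2 in MelanA, raised 4 in B16F0, of which 1 was Tek near the floor, and lowered 2 in B16F10. By DESeq2, 3 were raised in B16F0. Tek, which encodes Tie2, was at no more than 0.241 CPM in any group. Angpt4, an angiopoietin counted in this list, rose in MelanA from 0.429 to 1.08 CPM (log2 1.31, adjusted p = 0.000231). It did not pass in B16F0 (0.32) or in B16F10 (-0.36), where it was at 9.73 CPM untreated. Ptprb, a phosphatase that acts on Tie2, fell in MelanA (log2 -1.79, adjusted p = 0.000506) and B16F10 (-1.80, adjusted p = 0.000635). Its untreated level there was 0.502 and 0.592 CPM. In B16F0, where it was highest at 4.81 CPM untreated, the change did not pass (-0.49, adjusted p = 0.0816). The integrin genes that passed in at least 2 lines, Itga5, Itgb1 and Itgav, changed by no more than 0.36 log2 units. Of 4 other angiopoietin-like genes, only Angptl1 passed the expression filter, with a log2 change of -1.52 in MelanA (adjusted p = 0.018) that DESeq2 did not call. Lpl and its carrier Gpihbp1, the targets of ANGPTL4 on vessels, had at most 6 counts in any library, and of the 4 binding partners that passed the filter 1 rose and 2 fell in MelanA, 2 rose in B16F0, and 2 rose and 1 fell in B16F10. By DESeq2, 1 rose and 1 fell in B16F10. Sdc4, a syndecan, fell in MelanA (-0.41, adjusted p = 5.72e-12) and B16F10 (-0.34, adjusted p = 4.01e-10).

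In the PDGF branch of the superfamily, SX-682 raised 1 and lowered 1 of 6 genes in each line, with Pdgfrb raised in all 3 lines (log2 0.35, 0.50 and 0.64 in MelanA, B16F0 and B16F10) and Pdgfa lowered in MelanA (-0.14) and B16F10 (-0.32). Of 7 tested genes of VEGF processing and release, 1 rose and 2 fell in MelanA, 3 rose and 2 fell in B16F0, and 2 rose and 3 fell in B16F10. Hpse, a heparanase that frees matrix-bound VEGF, rose in all 3 (0.45, 0.22 and 0.37 in the same order of lines). Plat, the tissue plasminogen activator gene, fell in all 3 (-0.14, -0.44 and -0.32). Of 13 other pro-angiogenic ligands, 1 rose and 5 fell in MelanA (23.4% and 24.7% of all genes), 6 rose and 2 fell in B16F0 (25.1% and 25.0%), and 3 rose and 2 fell in B16F10 (25.5% and 25.3%), and the difference between lines was not tested for the list. Ccn1, a matricellular ligand of integrins, fell slightly in MelanA (-0.13) and rose in B16F0 (2.74) and B16F10 (0.84), whereas Apln, the ligand of the apelin receptor, fell in all 3 (-0.78, -1.09 and -1.77). Of 15 angiogenesis inhibitors, 4 rose and 8 fell in MelanA, 4 rose and 5 fell in B16F0, and 3 rose and 8 fell in B16F10. In DESeq2 the B16F0 counts were 5 raised and 4 lowered. Timp3, which blocks VEGFR2 and metalloproteinases, rose in all 3 (1.04, 1.47 and 1.43). In MelanA its level was only 0.173 CPM untreated and 0.359 CPM with SX-682 (SE 0.36), against 144 and 108 CPM in untreated B16F0 and B16F10. Vash1, the vasohibin gene, fell in all 3 (-0.64, -0.33 and -0.40). Col4a3 fell more, in MelanA (-0.87) and B16F10 (-2.30), and did not pass in B16F0 (-0.57).

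Lists of genes known to be regulated with Vegfa or Angptl4, also chosen with earlier results known, were counted as well. The shares over all genes were 23.4% raised and 24.7% lowered in MelanA, 25.1% and 25.0% in B16F0, and 25.5% and 25.3% in B16F10. Of 20 hypoxia target genes, SX-682 raised 18 and lowered 0 in MelanA, by edgeR with either the adjusted or the unadjusted p under 0.05 and by DESeq2. In B16F0 it raised 7 and lowered 10, and in B16F10 it raised 8 and lowered 7. The median log2 change of the list was 0.63, -0.13 and -0.06 in MelanA, B16F0 and B16F10, against 0.00 for all genes. Hk2, which encodes a hexokinase of glycolysis, rose in MelanA (0.65) and fell in B16F0 (-0.66) and B16F10 (-0.65). Ddit4 (0.38, 0.84 and 1.97) and Ndrg1 (0.42, 0.67 and 1.09), which respond to several stresses besides hypoxia, rose in all 3 lines, and Pfkfb4 fell in B16F0 (-0.61) and B16F10 (-0.76). The 10 hypoxia-inducible factors and regulators had 5 raised and 3 lowered in MelanA, 3 raised and 5 lowered in B16F0, and 2 raised and 4 lowered in B16F10. Hif1a itself rose in all 3 lines (0.91, 0.30 and 0.27), and Epas1, which encodes HIF-2α, fell in all 3 (-0.50, -0.29 and -0.38).

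Of 14 ATF4 and CHOP stress genes, 13 rose and 0 fell in MelanA, again by both p-values and by DESeq2, and 12 rose and 2 fell in B16F0 and in B16F10. The median log2 change was 0.71, 1.24 and 1.76 in MelanA, B16F0 and B16F10. Trib3 (1.56, 2.62 and 4.95) and Ddit3, which encodes CHOP (2.14, 2.05 and 3.50), rose most by the naming rule. The chaperone gene Hspa5 (0.22, -0.39 and -0.31) and Xbp1 (0.52, -0.67 and -0.25), both of other branches of the unfolded protein response, rose in MelanA and were the 2 that fell in each B16 line. Of 14 PPAR receptors and target genes, 4 rose and 3 fell in MelanA, 1 rose and 6 fell in B16F0, and 3 rose and 3 fell in B16F10. By DESeq2, 5 fell in B16F0 and 2 in B16F10. Over all genes, 23.4% rose and 24.7% fell in MelanA, 25.1% and 25.0% in B16F0, and 25.5% and 25.3% in B16F10. Plin2, the lipid droplet coat gene, rose in MelanA (0.60) and B16F10 (0.26) and fell in B16F0 (-0.09). Ppargc1a, a coactivator of mitochondrial genes, did the same (0.91 and 0.30, and -0.85). The naming rule also gave Acadm and Rxra as lower, with mean log2 changes over the 3 lines of -0.54 and -0.14.

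**Figure D5:**
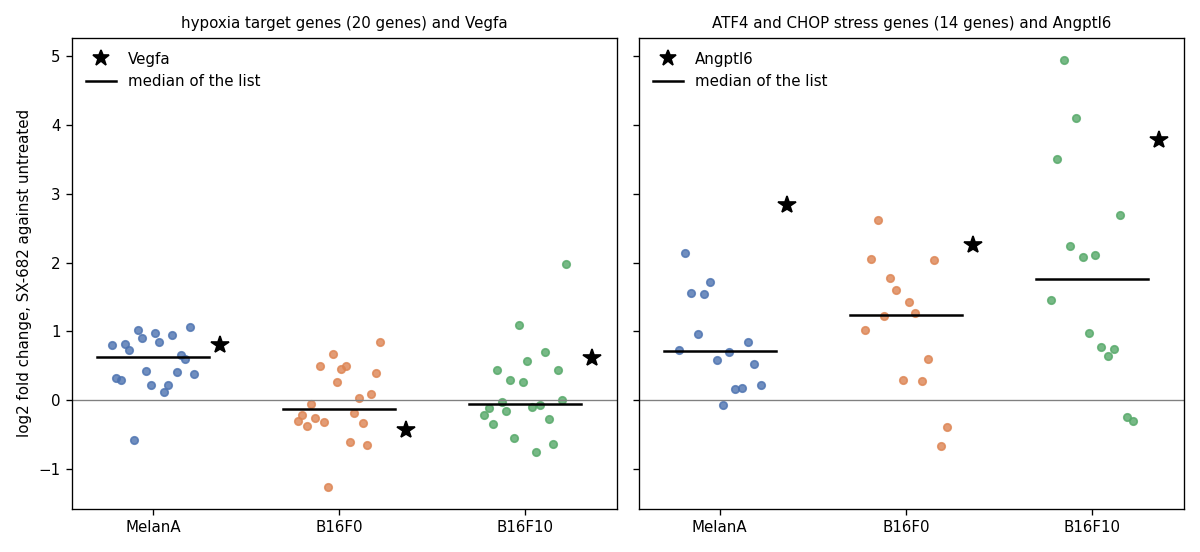
The log2 fold change with SX-682 of each tested gene of the hypoxia target list (left) and the ATF4 and CHOP list (right) in each line, with the list median as a bar and Vegfa or Angptl6 as a star. The hypoxia list has a median of 0.63 in MelanA and medians of -0.13 and -0.06 in B16F0 and B16F10, and Vegfa is above the list median in MelanA and B16F10 and below it in B16F0. Angptl6 is drawn beside the ATF4 and CHOP list only to compare sizes of change, and a link of either gene to its list was not tested.

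The genes whose log2 CPM over the 12 libraries was most like that of a member, by Pearson r among 10891 genes with a mean log2 CPM of at least 1, are given as a description, since the 12 libraries fall into 6 groups. They were Pdk3 (r = 0.979) and Grhpr (0.976) for Vegfa. For Vegfb they were Fech (0.993) and Ulbp1 (0.989), and for Vegfc Mier1 (0.937) and Dcbld1 (0.92). Pgf was nearest to Emilin1 (0.995) and C1qtnf1 (0.992). Angpt2 was nearest to Plaat3 and Apoe (0.999 each), and Apoe, like Angpt2, was low in untreated MelanA (5.69 CPM) and high in untreated B16F0 (624 CPM) and B16F10 (1126 CPM). Angptl2 was nearest to Zbtb38 (0.996) and Igf2bp2 (0.994), Angptl4 to Pih1d1 and Paqr4 (0.983 each), and Angptl6 to Parp6 (0.987) and Zfp449 (0.986). Parp6 was at 5.26 CPM untreated and 12.5 with SX-682 in MelanA, 12.8 against 19.7 in B16F0 and 7.14 against 18.0 in B16F10. Angptl4, Vegfd and Angpt1 were themselves under a mean log2 CPM of 1, and likeness was computed for Angptl4 alone among them, against 10892 genes.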

How the data were processed

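RNA was extracted from cultures of the 3 lines and sequenced, with 2 libraries per group. The submitters' processing notes name cutadapt, STAR, DESeq2 and mm10, without versions, and the counting program and its strand setting are not given in the sources used here. The authors deposited raw read counts per gene, without normalization, for 34513 genes with GRCm38 coordinates and lengths. Groups and replicate numbers came from the sample labels.

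Counts were fitted in R 4.3.3 with edgeR 4.0.16 (quasi-likelihood F-test on all 12 libraries, scaled by TMM, with 18338 genes left by filterByExpr, a prior count of 0.125, no block, Benjamini-Hochberg adjustment over all tested genes at 0.05). The fit had 6 residual and 21.9 prior degrees of freedom, and each SE was the log2 fold change divided by the root of F. The scripts were tested on simulated data. CPM were scaled by TMM, and CPM per kb used the table's gene lengths. Strand and overlaps came from GENCODE M21.

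Members and gene lists were chosen with earlier results of these data known. Genes named are all 10 members, the 2 largest and 2 smallest mean changes of each list among genes called in that direction in at least 2 lines (a selection of these is printed), and the 2 genes most like a member. Kdr, Flt1, Flt4, Tek, Angpt4, Lpl, Gpihbp1 and Angptl1 were named after their values were seen, to say which receptors, ligands and targets were present.

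Alternatives were DESeq2 1.42.0, scaling by RLE, a fit without the filter, a minimum of 10 counts in every library, only the groups compared, the replicate number as a block, a prior count of 2, an adjusted p of 0.01, a fold limit of 1 log2 unit in either direction, and each library left out.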

Additional observations from a re-analysis of the deposited data

Results flagged for a closer look

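In 6 of the 10 members the SX-682 change differed among the 3 lines by an F-test of the difference in edgeR's quasi-likelihood fit, which is what singled them out; 47.4% of all tested genes passed that test. The range of the log2 change over the lines was 1.24 for Vegfa (adjusted p = 2.68e-16), which rose in MelanA and B16F10 and fell in B16F0, and 1.53 for Angptl6 (adjusted p = 2.55e-06), which rose in all 3. For Angptl2 it was 0.51 (adjusted p = 1.32e-12), with a rise in MelanA and a fall in both B16 lines. For Angpt2 the F-test passed (adjusted p = 0.000161). Of the pairs, only B16F10 against B16F0 passed (-0.25, SE 0.048, adjusted p = 0.000119). B16F0 against MelanA, the pair that sets the range, did not pass (SE 0.31, adjusted p = 0.194). That range was 0.58, with values of 0.92 and 0.27 when MelanA SX-682 replicate 1 or replicate 2 was left out. For Pgf it was 0.59 (adjusted p = 0.0102), which was lost without MelanA SX-682 replicate 1 (adjusted p = 0.0577) or MelanA untreated replicate 1 (adjusted p = 0.0523) and had a range of 1.23 without B16F10 untreated replicate 2. For Vegfc it was 0.32 (adjusted p = 0.0448), which was lost in DESeq2, under RLE scaling, without the filter and in 9 of the 12 fits that left out 1 library (adjusted p of 0.0528 to 0.184).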

How the results depend on the processing

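Requiring at least 10 counts in every library left 4 members called between untreated B16F0 and MelanA in place of 8, because Vegfd, Angpt1 and Angptl4 were no longer tested and Vegfb lost its call (0.07, adjusted p = 0.106). Of all genes, 10154 of the 12326 tested were called in that setting. With a limit of 1 log2 unit in either direction, the SX-682 change kept 2 members in MelanA, 1 in B16F0 and 2 in B16F10. It kept 12, 18 and 17 of 115 tested pathway genes in place of 80, 78 and 71. Of all 18338 genes, 1008, 1435 and 1500 were past that limit in the same order of lines. Among the 3 lines 2 members stayed past that limit, and for the change between pairs 1 (B16F0 and MelanA), 0 (B16F10 and MelanA, by edgeR and by DESeq2, 1 at an unadjusted p under 0.05) and 2 (B16F10 and B16F0). Of all 18338 genes, 1452 stayed among the lines, and 870, 783 and 575 for these pairs. Leaving out 1 library gave 6 to 7, 5 to 7 and 6 members for SX-682 in MelanA, B16F0 and B16F10, 76 to 82, 73 to 78 and 68 to 73 pathway genes, 7 to 8, 6 to 7 and 7 to 8 members between untreated lines in the order of the report, 4 to 7 among the lines, and 3 to 5, 2 to 3 and 3 to 5 for the pairs. The count of 5 for B16F0 and MelanA came without MelanA untreated replicate 2.

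Sign changes occurred only in values that had not passed the test. Without the filter the untreated Pgf difference between B16F0 and MelanA was 0.000351, and with a prior count of 2 the Pgf difference in change between B16F10 and B16F0 was 0.00592. Over the fits without 1 library, the untreated differences between B16F0 and MelanA ranged from -0.065 to 0.044 for Pgf and -0.078 to 0.052 for Vegfc. Differences in change between B16F10 and B16F0 ranged from -0.46 to 0.65 for Pgf, -0.27 to 1.06 for Angptl4 and -0.0062 to 0.094 for Vegfb, that of Vegfb between B16F10 and MelanA from -0.11 to 0.045, and that of Angptl4 between B16F0 and MelanA from -0.022 to 1.31. The SX-682 change in B16F10 ranged from -0.42 to 0.52 for Vegfd and -0.72 to 0.39 for Pgf. The cause was not tested.

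Of 93 member results, DESeq2 left 87 in direction and call, RLE scaling 89, a prior count of 2 92, and an adjusted p of 0.01 87. The same replicate numbers in treated and untreated groups did not pair the libraries (correlation of their deviations 0.01 in MelanA, -0.075 in B16F0 and -0.0087 in B16F10). A fit with a replicate block kept direction and call in 92 of 93 member results, and the Angptl6 difference in change between B16F0 and MelanA passed (adjusted p = 0.0494). The tests among lines were not run with only the groups compared, since those are all 12 libraries. Depth limits Angpt1, Vegfd and Angptl4 in the B16 lines, and Pgf in B16F10, where libraries hold at most 99 counts. It also limits Angpt2 in MelanA (10 to 27 counts) and Angptl6 in untreated MelanA (31 and 66 counts).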
